A study of Homo sapiens with 12 samples.

Results

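Heme is made from glycine and succinyl-CoA by a chain of enzymes that starts and ends in mitochondria, and it is broken down in the cytoplasm to biliverdin, iron and carbon monoxide. This account covers 9 enzymes of that route, which are 9 of the 58907 genes in the deposited table. Of these, 7 build heme (ALAS1, ALAD, UROS, UROD, CPOX, PPOX and FECH) and 2 degrade it (HMOX1 and BLVRB). They were picked by name after earlier results of the same data were known, because ALAS1 fell with the phthalate monoester MCHP in both polarization states. The change of ALAS1 with MCHP is therefore given as a description with no test, and the comparison of M1 with M2 cells, which the choice did not use, carries the tests. All 9 passed the filter on low counts, which left 15252 genes.

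RNA came from (PPRE)-eGEP-THP-1 cells, a reporter line made from THP-1 monocytic leukaemia cells. The cells of all 4 groups were treated with the phorbol ester PMA at 25 ng/mL for 48 h and then rested for 24 h. M1 MCHP and M1 DMSO cells received LPS at 100 ng/mL with IFN-γ at 20 ng/mL, and M2 MCHP and M2 DMSO cells received IL-4 and IL-13 at 20 ng/mL each. During these 24 h of polarization the cells were exposed to 100 µM MCHP (monocyclohexyl phthalate) or to the solvent DMSO. Each group had 3 libraries, described in the labels as biological replicates of 1 line. No separate cultures are named for them, so p-values measure the spread between these libraries.

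Libraries held 14352202 to 16871233 gene counts. M2 DMSO replicate 1 stood apart: its log2 deviation from the other libraries of its group had an SD of 0.334 over genes, against 0.147 to 0.210 for the other 11 libraries. Summed over 8 macrophage markers, the level was 1807 to 2327 CPM (gene counts relative to the TMM-scaled size of their library), with M1 libraries at 2188 to 2327 CPM and M2 libraries at 1807 to 2038 CPM. Among these markers SPI1, a myeloid transcription factor, averaged 350 to 473 CPM by group, while CD68 had only 3 to 17 counts over the 3 libraries of a group. Single markers differed in both directions. CD14 averaged 66.5 to 69.3 CPM by group in M1 and 7.49 to 7.98 CPM in M2. LYZ, PTPRC, SPI1 and FCGR3A were also higher in M1 by edgeR over the mean of treatments, with FCGR3A at only 0.278 to 1.49 CPM. ITGAM was lower in M1, at 356 to 363 CPM against 741 to 797 CPM in M2, and CSF1R did not pass. Of 6 M1 markers the sum was 1137 to 1307 CPM in M1 and 0.399 to 1.10 CPM in M2. For 7 M2 markers it was 2156 to 2380 CPM in M1 and 8815 to 11465 CPM in M2. Most of this sum was TGM2, with group means of 2115 to 2295 CPM in M1 and 9391 to 10046 CPM in M2. CCL22, CD209 and ALOX15 were also higher in M2 by edgeR. CCL13 did not pass over the mean of treatments (log2 fold change of M1 over M2 0.19) and was higher in M1 under MCHP (0.67). CCL17 had 1 to 6 counts in a group and the mannose receptor gene MRC1 had 0 to 2. Of 10 erythroid markers, HBA1 and HBA2 had no count in any group and HBB had 1 in all. The erythropoietin receptor gene EPOR, at 24.3 to 30.7 CPM by group, was the only marker of the erythroid list that was tested. The part of these marker levels in the results below was not tested. In bulk RNA, fewer cells with a transcript and less of it per cell cannot be told apart.

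ALAS1 makes 5-aminolevulinate and is the rate-limiting step of the pathway outside red cell precursors, where its paralog ALAS2 takes over. ALAD, UROS and UROD then act in building the porphyrin ring in the cytosol, CPOX and PPOX oxidize it in mitochondria, and FECH inserts iron. Heme in turn represses ALAS1 and relieves the repression of HMOX1 by BACH1. HMOX1 opens the heme ring, and biliverdin reductases such as BLVRB reduce the product. In macrophages this route is best known from the clearance of aged red cells.

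ALAS1 lies on chromosome 3 (ENSG00000023330, hg38, 52198086 to 52214327, plus strand). Of the other members, CPOX lies at 98579446 to 98593723 on the same chromosome (minus strand) and FECH at 57548283 to 57586772 on chromosome 18 (minus strand). The sequences before their starts are shown because ALAS1 and the pair CPOX and FECH differed in opposite directions between M1 and M2. They are RefSeq promoter entries of GRCh38.p14, cut to the bases outside every annotated exon of GENCODE release 29 and written 5′ to 3′ along the gene's strand. ALAS1 is shown at chr3:52197833-52198082 (250 bases), CPOX at chr3:98593724-98593861 (138 bases) and FECH at chr18:57586773-57586952 (180 bases).
ALAS1: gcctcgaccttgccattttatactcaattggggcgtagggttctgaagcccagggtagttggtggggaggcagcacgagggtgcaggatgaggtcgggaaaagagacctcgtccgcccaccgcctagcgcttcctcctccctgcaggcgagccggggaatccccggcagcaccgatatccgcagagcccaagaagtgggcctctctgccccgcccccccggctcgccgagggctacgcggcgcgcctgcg
CPOX: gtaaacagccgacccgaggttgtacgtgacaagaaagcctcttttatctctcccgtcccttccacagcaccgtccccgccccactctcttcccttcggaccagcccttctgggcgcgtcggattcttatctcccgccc
FECH: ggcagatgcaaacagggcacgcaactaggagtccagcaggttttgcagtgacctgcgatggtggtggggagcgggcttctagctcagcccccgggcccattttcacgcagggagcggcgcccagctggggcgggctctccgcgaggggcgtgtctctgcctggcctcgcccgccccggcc

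G and C made up 67.2% of the bases shown for ALAS1, 60.1% for CPOX and 70.0% for FECH. Over the full 250 bases before the start they made up 65.6% for CPOX and 72.4% for FECH. The median over the 250 bases before the start in all 35116 promoter entries was 58.0%. Of the 9 members, 7 had an entry, and UROS and HMOX1 had none. Motifs were searched on both strands of those 250 bases: the NRF1 core GCGCATGC, the antioxidant or MAF element TGACNNNGC, the MAF element TGCTGAG and the E-box CACGTG. A complete MAF element can hold both TGACNNNGC and TGCTGAG, so these can overlap, but not every form of it does. Matches were present in 2.63%, 10.9%, 5.14% and 6.34% of all entries, in that order. The only match among the members was TGACNNNGC on the opposite strand of FECH, read as GCGAGGTCA along the gene, 38 to 30 bases before the start and outside the stretch shown. No capitals appear above because no match lies there. A match, or none, describes the letters of these windows only.

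The comparison of M1 with M2 cells shows how the pathway differs between classical and alternative polarization. ALAS1 was higher in M1 cells, whereas UROS, CPOX, FECH and HMOX1 were lower there. With edgeR's quasi-likelihood model over the mean of MCHP and DMSO libraries (adjusted p under 0.05), 1 of 9 members was higher and 4 were lower. Of all genes tested, 27.7% were higher and 28.0% lower, 55.7% in all. Since 5 of 9 members passed, their share was close to that of all genes, and the count does not set the pathway apart. The median log2 fold change was -0.19 over the 9 members and -0.0040 over all genes.

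ALAS1 had 217, 202 and 205 CPM in M1 MCHP libraries and 264, 273 and 257 CPM in M1 DMSO libraries. In M2 cells it had 130, 141 and 130 CPM with MCHP and 200, 188 and 192 CPM with DMSO. Every M1 library thus lay above every M2 library, although the M1 MCHP libraries came close to the M2 DMSO libraries. The log2 fold change of M1 over M2 was 0.55 ± 0.04 (SE; edgeR adjusted p = 1.3e-09). It was 0.64 ± 0.06 under MCHP and 0.45 ± 0.06 in DMSO.

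**Figure D1:**
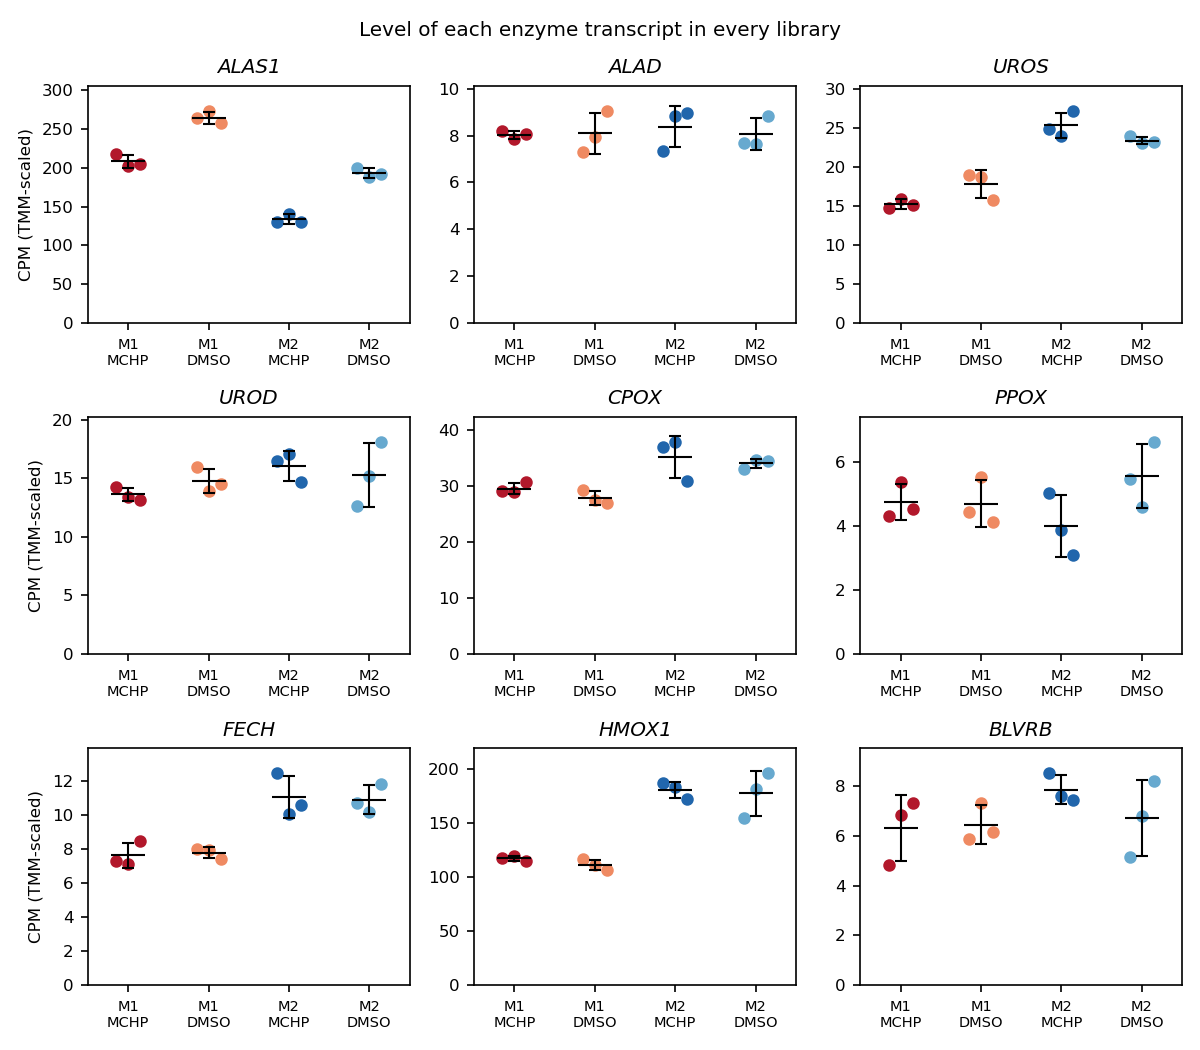
Level of each of the 9 transcripts in TMM-scaled CPM (vertical axes, from 0) in the 3 libraries of each group (points), with the mean (bar) and SD (whiskers). ALAS1 and HMOX1 order the M1 and M2 groups in opposite ways: ALAS1 is at 202 to 273 CPM in M1 and 130 to 200 CPM in M2, and HMOX1 at 106 to 119 CPM in M1 and 155 to 196 CPM in M2.

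HMOX1 (ENSG00000100292, chromosome 22, 35380361 to 35394214, plus strand), the inducible heme oxygenase, had 118, 119 and 115 CPM in M1 MCHP libraries and 116, 111 and 106 CPM in M1 DMSO libraries. In M2 it had 187, 184 and 173 CPM with MCHP and 155, 181 and 196 CPM with DMSO. All 6 M1 libraries lay below all 6 M2 libraries, of which M2 DMSO replicate 1 was the lowest. M1 cells were lower by a log2 fold change of -0.65 ± 0.05 (SE; edgeR adjusted p = 3.8e-09). Under MCHP it was -0.63 ± 0.07 and in DMSO -0.68 ± 0.07.

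UROS (ENSG00000188690, chromosome 10, 125784980 to 125823285, minus strand) closes the tetrapyrrole ring. It had 14.7, 15.98 and 15.1 CPM in M1 MCHP libraries and 19.0, 18.8 and 15.8 CPM in M1 DMSO libraries. Its M2 values were 24.9, 24.0 and 27.2 CPM with MCHP and 24.0, 23.1 and 23.2 CPM with DMSO. No M1 library reached an M2 library. The log2 fold change of M1 over M2 was -0.56 ± 0.07 (SE; edgeR adjusted p = 8.1e-07), with -0.73 ± 0.09 under MCHP and -0.39 ± 0.09 in DMSO.

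FECH, the ferrochelatase that completes heme, had 7.32, 7.12 and 8.46 CPM in M1 MCHP libraries and 8.01, 7.95 and 7.44 CPM in M1 DMSO libraries. In M2 cells it stood at 12.5, 10.1 and 10.6 CPM with MCHP and 10.7, 10.2 and 11.9 CPM with DMSO. The 2 states did not overlap. Between M1 and M2 the log2 fold change was -0.51 ± 0.09 (SE; edgeR adjusted p = 8.6e-05), with -0.53 ± 0.13 under MCHP and -0.49 ± 0.13 in DMSO.

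CPOX, which oxidizes coproporphyrinogen, had 29.1, 28.98 and 30.7 CPM in M1 MCHP libraries and 29.3, 27.5 and 27.0 CPM in M1 DMSO libraries. M2 libraries had 36.9, 37.8 and 30.9 CPM with MCHP and 33.1, 34.7 and 34.4 CPM with DMSO. M2 MCHP replicate 3, at 30.9 CPM, lay only just above the highest M1 library at 30.7 CPM. The log2 fold change was -0.27 ± 0.06 (SE; edgeR adjusted p = 0.00084). Under MCHP it was -0.25 ± 0.08 (adjusted p = 0.021), a call that ended without M1 MCHP replicate 1 (adjusted p = 0.068) or 2 (0.071) or M2 MCHP replicate 1 (0.091) or 2 (0.11), all by edgeR. In DMSO it was -0.29 ± 0.09 (edgeR adjusted p = 0.010).

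The other 4 members did not pass the test between M1 and M2, which does not show that they were equal. ALAD, which joins 2 aminolevulinate molecules (chromosome 9, 113386317 to 113401333), had a log2 fold change of -0.03, with a 95% interval of -0.24 to 0.19. UROD, which decarboxylates uroporphyrinogen (chromosome 1, 45012147 to 45015575), was at -0.15 (-0.34 to 0.05). BLVRB, biliverdin reductase B (chromosome 19, 40447765 to 40465840), was at -0.19 (-0.49 to 0.11). Without M2 DMSO replicate 1, UROD passed at -0.21 (edgeR adjusted p = 0.019) and BLVRB at -0.27 (0.048), which made 7 of 9 members called. PPOX, protoporphyrinogen oxidase (chromosome 1, 161166410 to 161178013), was at -0.0038 (-0.33 to 0.33). PPOX shares 24.3% of its exon bases with B4GALT3 on the opposite strand, which had 6782 counts in all against 892 for PPOX. No strand setting is given, so reads there could not be told apart.

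The M1 against M2 comparison was also made within each treatment, where ALAS1 was again the 1 member that was higher and UROS, CPOX, FECH and HMOX1 were the 4 that were lower. Of all genes, 21.9% were higher and 22.7% lower under MCHP (44.6% in all), and 21.6% were higher and 20.9% lower in DMSO (42.5% in all). Groups did not overlap for 7 members under MCHP, 1 higher and 6 lower, where UROD and BLVRB joined these 5. In DMSO they did not overlap for the same 5, 1 higher and 4 lower. Over all genes the share without overlap was 57.0% under MCHP (28.3% higher, 28.8% lower) and 49.5% in DMSO (25.5% higher, 24.1% lower).

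**Figure D2:**
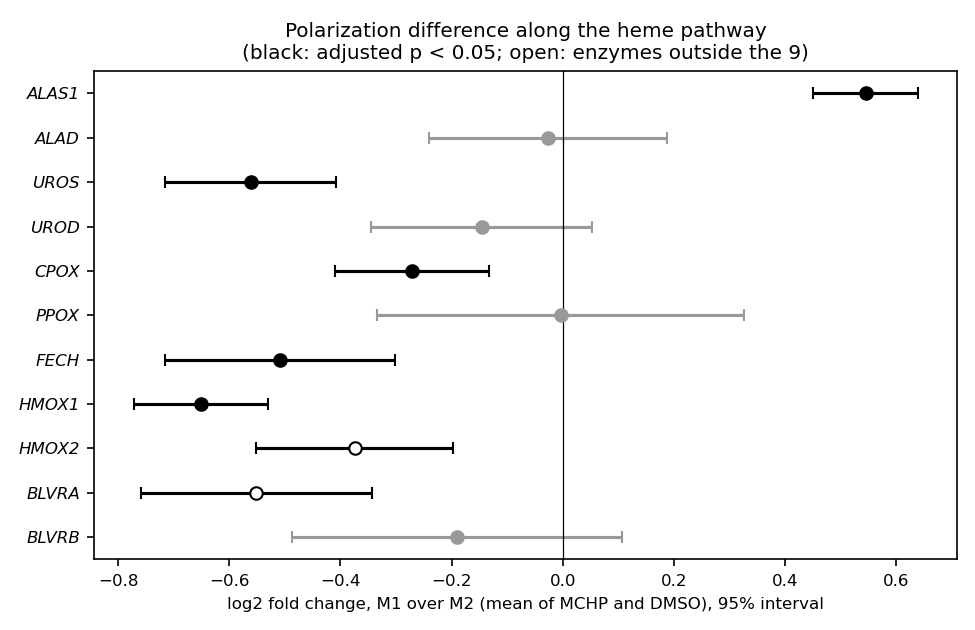
Log2 fold change of M1 over M2, over the mean of MCHP and DMSO (horizontal axis), with 95% intervals, in pathway order for the 9 members (filled) and 2 further enzymes of the route (open). ALAS1, at 0.55, is the only point to the right of 0 whose interval excludes it, and UROS, CPOX, FECH, HMOX1, HMOX2 and BLVRA lie to the left.

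Further enzymes of the breakdown route are HMOX2, the constitutive heme oxygenase, and BLVRA, biliverdin reductase A, and both were lower in M1 cells. BLVRA averaged 9.55 ± 0.20 CPM in M1 MCHP libraries and 8.30 ± 1.35 CPM in M1 DMSO libraries, against 15.6 ± 1.89 CPM in M2 MCHP and 10.98 ± 0.21 CPM in M2 DMSO libraries (SD, n = 3). All M1 libraries lay below all M2 libraries, and the log2 fold change was -0.55 ± 0.09 (SE; edgeR adjusted p = 3.8e-05). HMOX2 was at -0.37 ± 0.08 (edgeR adjusted p = 0.00042), with M1 and M2 libraries that overlapped. In DMSO alone the call for BLVRA ended without M1 DMSO replicate 1 or 2, and HMOX2 did not pass. HMOX2 shares 6.01% of its exon bases with NMRAL1 on the opposite strand. ALAS2, the erythroid form of the first enzyme, had 12 counts in all 12 libraries together and was not tested.

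Levels of different enzymes were compared per kilobase of gene model, which is the exon union of all annotated transcripts. This model is 9532 bases for UROS and 1689 to 4983 bases for the other 8 members, so that the level of UROS per kilobase is spread over many alternative exons. ALAS1 had the highest level of the 9 members in M1, at 82.0 ± 3.19 CPM per kilobase in MCHP libraries and 104 ± 3.02 in DMSO libraries (SD, n = 3). HMOX1 came second there, at 48.8 ± 1.01 and 46.2 ± 2.08 CPM per kilobase. In M2 MCHP libraries the order turned, with HMOX1 at 75.2 ± 3.08 and ALAS1 at 52.7 ± 2.49 CPM per kilobase. In M2 DMSO libraries ALAS1 (76.2 ± 2.37) and HMOX1 (73.8 ± 8.61) overlapped.

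CPOX came next in every group, at 8.64 to 10.9 CPM per kilobase by group mean. UROD followed at 4.69 to 5.53 and BLVRB at 3.75 to 4.66. UROD and BLVRB overlapped in both M2 groups. UROS, FECH and ALAD lay between 1.60 and 2.66 CPM per kilobase and overlapped as neighbours in M1. In M2 groups UROS and FECH overlapped with each other and lay above ALAD. PPOX was lowest, at 0.869 to 1.21.

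As a share of the level per kilobase summed over the 7 synthesis enzymes, ALAS1 made up 81.3%, 80.3% and 80.04% in M1 MCHP libraries and 83.4%, 84.4% and 84.0% in M1 DMSO libraries. In M2 it made up 67.2%, 69.0% and 69.7% with MCHP and 78.0%, 76.1% and 75.1% with DMSO. The 4 groups did not overlap in this share. ALAS1 was chosen for its fall with MCHP, so the share is a description. Nothing is read from its separation of MCHP and DMSO libraries. The summed level of the 6 other synthesis enzymes was 19.8 ± 0.27 CPM per kilobase in M1 MCHP libraries and 20.0 ± 0.70 in M1 DMSO libraries, and 24.1 ± 1.58 in M2 MCHP and 23.5 ± 1.49 in M2 DMSO libraries (SD, n = 3). The groups with MCHP and DMSO overlapped in that sum in both states, and every M1 library lay below every M2 library.

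**Figure D3:**
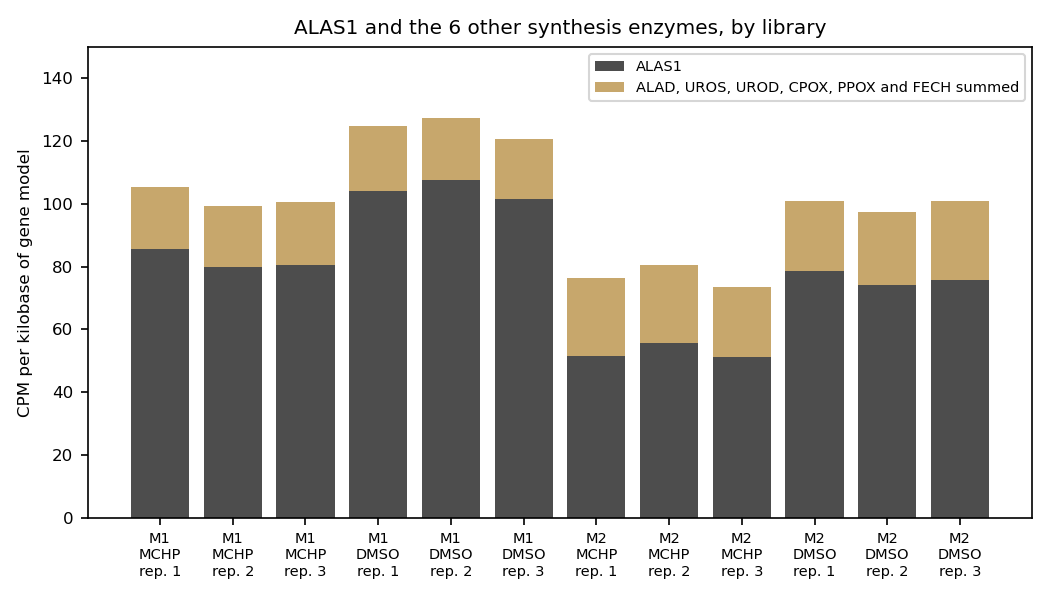
CPM per kilobase of gene model (vertical axis) in each of the 12 libraries (horizontal axis) for ALAS1 (dark) and the 6 other synthesis enzymes summed (light). The dark part ranges from 51.2 to 107 and sets most of the height, while the light part stays between 19.4 and 25.2.

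The comparison of MCHP with DMSO asks how the compound regulates polarizing macrophages, and ALAS1 was chosen from it. Its log2 fold change was -0.35 ± 0.06 (SE) in M1 and -0.53 ± 0.06 in M2, on the values listed above, and MCHP and DMSO libraries did not overlap in either state. With alternative settings and with single libraries left out, these values ran from -0.38 to -0.32 in M1 and from -0.58 to -0.50 in M2. Groups of libraries without overlap made up 15.9% of all genes in M1 (8.35% higher, 7.58% lower) and 20.8% in M2 (11.2% higher, 9.53% lower). Among the members they were ALAS1 in M1 and ALAS1 and UROS in M2, and nothing is read from this because the choice used this contrast.

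None of the other 8 members passed in M1 or in M2 by edgeR, DESeq2 or limma-voom. Over all genes 0.0852% passed by edgeR in M1 (0.0721% higher, 0.0131% lower) and 5.11% in M2 (2.92% higher, 2.18% lower). At an unadjusted p under 0.05 by edgeR there was 1 of 8 in M1 (UROS) and 1 of 8 in M2 (PPOX), against 5.36% of all genes in M1 and 18.8% in M2. In M1 their log2 fold changes ran from -0.23 to 0.08 with a median of -0.02, and in M2 from -0.47 to 0.22 with a median of 0.05, against 0 in M1 and -0.00034 in M2 over all genes.

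Among the later synthesis steps, CPOX was at 0.08 ± 0.09 in M1 and 0.05 ± 0.08 in M2 (log2 fold change of MCHP over DMSO, SE). FECH was at -0.03 ± 0.13 and 0.02 ± 0.12, ALAD at -0.01 ± 0.13 and 0.06 ± 0.13, and UROD at -0.12 ± 0.12 and 0.07 ± 0.12, in the same order of states. All of these lay within 1 SE of 0. UROS was at -0.23 ± 0.10 in M1 and 0.11 ± 0.09 in M2. In M2 its 3 MCHP libraries were just above its 3 DMSO libraries, the lowest of the MCHP libraries and the highest of the DMSO libraries both at 24.0 CPM. PPOX was at 0.01 ± 0.20 in M1 and -0.47 ± 0.20 in M2, where it had 78, 67 and 45 counts with MCHP and 87, 78 and 116 with DMSO.

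Of the breakdown enzymes, HMOX1 was at 0.08 ± 0.07 in M1 and 0.03 ± 0.07 in M2. The 95% interval was -0.10 to 0.25 in M1 and -0.14 to 0.20 in M2. BLVRB was at -0.03 ± 0.19 and 0.22 ± 0.18, with 77 to 112 counts in M1 MCHP libraries, 82 to 109 in M1 DMSO libraries, 109 to 132 in M2 MCHP libraries and 82 to 144 in M2 DMSO libraries. For both enzymes, MCHP and DMSO libraries overlapped in each state.

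**Figure D4:**
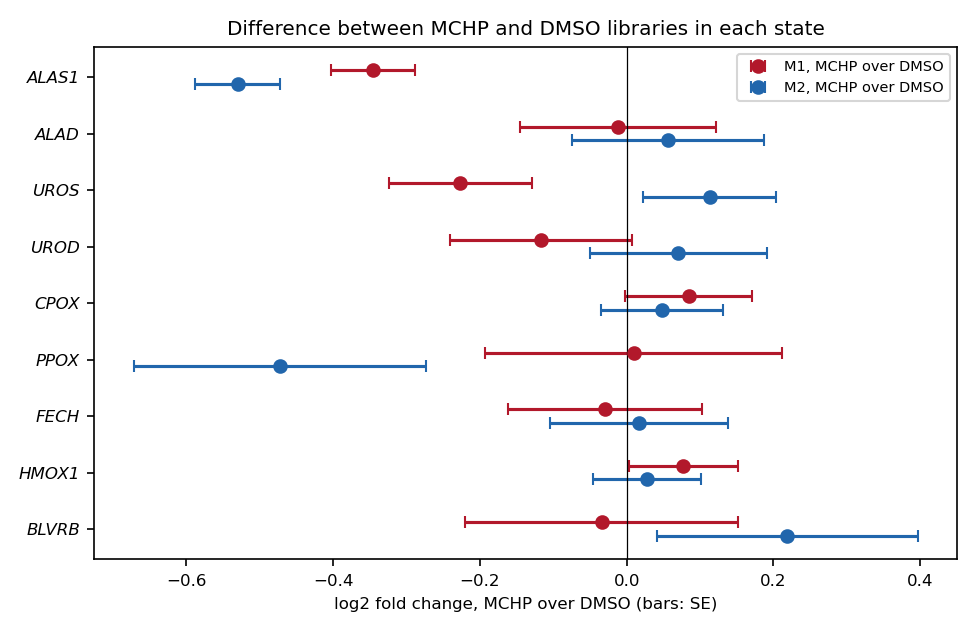
Log2 fold change of MCHP over DMSO (horizontal axis) with its SE for each of the 9 members in M1 (red) and M2 (blue). ALAS1 lies at -0.35 and -0.53, and PPOX in M2 is the only other point as low, at -0.47.

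The difference of the MCHP responses, M1 minus M2, was tested for the 8 members other than ALAS1, and none passed by edgeR, DESeq2 or limma-voom. Over all genes 0.164% passed by edgeR (0.0590% higher, 0.105% lower). At an unadjusted p under 0.05 there was 1 of 8, against 8.84% of all genes, and this was UROS, with a difference of -0.34 ± 0.13 (SE; edgeR adjusted p = 0.45) and a 95% interval of -0.65 to -0.03. PPOX had the widest interval, at 0.48 (-0.17 to 1.14). For HMOX1 it was 0.05 (-0.19 to 0.29). The difference for ALAS1, given without a test, was 0.18 ± 0.08.

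Further lists of genes around the pathway were chosen from general knowledge, with earlier results of these data known. Of 22 transporters and trafficking factors of heme, porphyrins and mitochondrial iron, 20 were tested between M1 and M2. Of these, 4 were higher in M1 and 10 lower (median -0.16), beside the 27.7% higher and 28.0% lower of all genes, which hold for the lists that follow as well. SLC25A37 (mitoferrin 1), which imports iron into mitochondria, averaged 122 ± 4.23 CPM in M1 MCHP and 141 ± 5.47 CPM in M1 DMSO libraries, against 30.1 ± 2.19 CPM in M2 MCHP and 38.6 ± 1.98 CPM in M2 DMSO libraries (SD, n = 3). Its log2 fold change was 1.94 ± 0.05 (SE; edgeR adjusted p = 1.3e-16). The related mitoferrin gene SLC25A28 was at 1.75 ± 0.06 (adjusted p = 1.4e-14 by edgeR). CD163, the receptor for haptoglobin-bound hemoglobin, was at 0.76 ± 0.07 (edgeR adjusted p = 1.0e-08). SLC48A1 (HRG1), which moves heme out of lysosomes, was lower in M1, at -1.09 ± 0.10 (edgeR adjusted p = 3.0e-08). TSPO, a porphyrin-binding protein of the outer mitochondrial membrane, was at -0.95 ± 0.09 (edgeR adjusted p = 6.0e-08). It was at -1.004 ± 0.13 under MCHP (edgeR adjusted p = 4.5e-06) and -0.90 ± 0.13 in DMSO.

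Of 18 listed regulators, 16 were tested and 7 were higher and 4 lower in M1 (median 0.09). BACH1, which represses HMOX1, averaged 275 ± 3.98 CPM in M1 MCHP and 260 ± 3.52 CPM in M1 DMSO libraries, against 185 ± 9.14 CPM in M2 MCHP and 163 ± 3.51 CPM in M2 DMSO libraries (SD, n = 3). The log2 fold change was 0.62 ± 0.04 (SE; edgeR adjusted p = 7.3e-11). NFE2L2, which encodes the HMOX1 activator NRF2, was also higher in M1, at 0.75 ± 0.06 (edgeR adjusted p = 6.5e-09). HIF1A, the hypoxia-inducible factor, was at 1.07 ± 0.06 (edgeR adjusted p = 8.1e-12). PPARGC1B, a coactivator of mitochondrial genes, was lower, at -0.61 ± 0.06 (edgeR adjusted p = 1.8e-08). ABCE1, a ribosome recycling factor placed on this list without a known role in heme control, is 1 of the 4 counted as lower. It was at -0.48 ± 0.05 (edgeR adjusted p = 7.8e-08), with -0.56 ± 0.07 under MCHP (edgeR adjusted p = 1.6e-06) and -0.40 ± 0.07 in DMSO. HMOX1 RNA was lower in the state in which the RNA of both its repressor and its activator was higher. A link between them was not tested.

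Of 26 genes listed for heme-using proteins, 21 were tested, with 5 higher and 10 lower in M1 (median -0.15). Those lower include the reductases POR (-0.22) and CYB5R3 (-0.24), which serve heme proteins but carry no heme. PTGS2, the inducible cyclooxygenase, was at 3.499 ± 0.06 (SE; edgeR adjusted p = 5.9e-19). CYBB, the heme-bearing subunit of the phagocyte oxidase, averaged 952 ± 27.6 CPM in M1 MCHP and 1032 ± 48.6 CPM in M1 DMSO libraries, against 309 ± 23.0 CPM in M2 MCHP and 300.2 ± 6.87 CPM in M2 DMSO libraries (SD, n = 3), a log2 fold change of 1.70 ± 0.04. CAT (catalase) was lower in M1, at -1.66 ± 0.05 (edgeR adjusted p = 2.8e-15). IDO1, a heme dioxygenase of tryptophan, had 9237 counts over the M1 MCHP and 9976 over the M1 DMSO libraries, against 2 over the M2 MCHP and 0 over the M2 DMSO libraries. The levels of heme users and of the enzymes that make heme thus moved in both directions between the states.

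**Figure D5:**
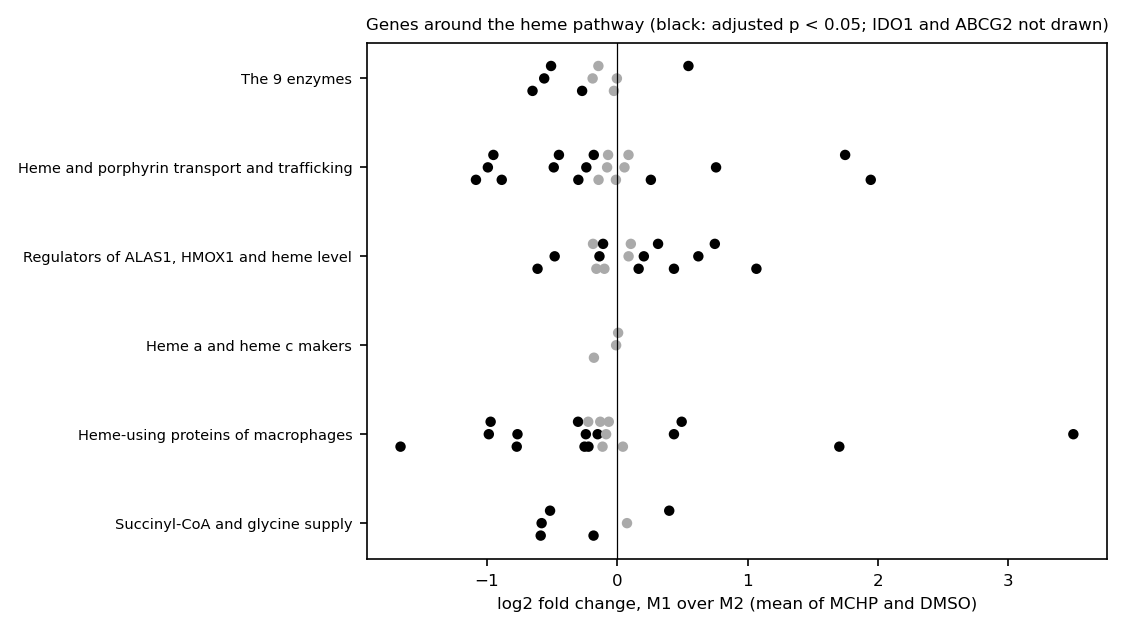
Log2 fold change of M1 over M2, over the mean of MCHP and DMSO (horizontal axis), for every tested gene of the members and 5 other lists (points, spread vertically for legibility). Black points passed the test and grey points did not. Points lie on both sides of 0 in the transport, regulator and heme-using lists, and IDO1 and ABCG2, which have few or no counts in 1 state, are not drawn.

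With MCHP in M1, none of the tested genes of these lists passed by edgeR. At an unadjusted p under 0.05 there were 2 in the transport list, 2 among the regulators and 4 among the heme-using proteins (NR1D1 is on both of these lists), beside 5.36% of all genes, and DESeq2 called 1 of them (PTGS2) and limma-voom none. In M2, 1 transport gene was higher and 1 lower of 20 tested, and 2 regulators were higher of 16. In the heme-using list of 21 tested, 2 were higher (PTGS2, and POR, which carries no heme) and 1 was lower. Over all genes 2.92% were higher and 2.18% lower. BLVRA was higher too, at 15.04, 17.6 and 13.97 CPM with MCHP, against 11.2, 10.8 and 10.9 CPM with DMSO (log2 fold change of MCHP over DMSO 0.51 ± 0.12, SE). ABCG2, an exporter of porphyrins, had 75 counts over the M2 MCHP libraries and 11 over the M2 DMSO libraries, a ratio of 7.26 with a 95% counting interval of 3.84 to 15.2. On the log2 scale, SLC25A37 fell by 0.36 ± 0.07 (SE). MAFF, a small MAF protein that pairs with NRF2 and BACH1, rose by 0.41 ± 0.06, and NR1D2, which encodes a heme-binding nuclear receptor, by 0.44 ± 0.08. POR, the reductase that passes electrons to heme oxygenase and cytochromes P450, rose by 0.38 ± 0.09. PTGS2 rose by 0.51 ± 0.10 and PTGS1 fell by 0.25 ± 0.05. Calls for BLVRA and POR ended when only M2 libraries were fitted and without M2 MCHP replicate 1 or 2, for BLVRA also without M2 DMSO replicate 2 and for POR without M2 MCHP replicate 3. Those for SLC25A37, NR1D2, PTGS1 and PTGS2 ended when only M2 libraries were fitted, and that for ABCG2 by DESeq2.

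The genes most like ALAS1 were sought by Pearson's r of log2 CPM over the 12 libraries, among 9611 other protein-coding genes with a mean of at least 5 CPM. They included HADH, an enzyme of mitochondrial fatty acid oxidation (r = 0.980), INTS6L (0.977), CLU (0.970) and LST1 (0.959). HADH averaged 80.9 CPM in M1 MCHP, 96.1 in M1 DMSO, 56.9 in M2 MCHP and 76.8 in M2 DMSO libraries, the same order of groups as for ALAS1. For HMOX1 they were RAP1GAP (0.991), COL6A1 (0.990), PPM1F (0.990), LRPAP1 (0.988) and CHST7 (0.987). The 12 libraries fall into 4 groups, so each r mostly follows the group means and is a description.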

How the data were processed

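RNA-seq was available for 12 libraries, 3 for each of M1 MCHP, M1 DMSO, M2 MCHP and M2 DMSO, grouped by their titles. Values in the deposited table are raw counts, 1 row per gene and not normalized, with a gene model length column (per the file headers). In the submitters' processing notes the genome is hg38 and the tools are DESeq2 1.20.0, featureCounts 1.5.0-p3, StringTie 1.3.3b, HISAT2 2.0.5 and fastp, without roles. The strand setting is not given in the sources used here. Start, end and length of all members match GENCODE release 29.

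The analysis used edgeR 4.0.16 under R 4.3.3: filterByExpr over the 4 groups (15252 of 58907 genes kept), TMM scaling, 1 mean per group for all 12 libraries (8 residual degrees of freedom) and two-sided quasi-likelihood F-tests, with Benjamini-Hochberg adjustment over all genes tested and a threshold of 0.05. The SE is the log2 fold change divided by the square root of F, and 95% intervals use 8 degrees of freedom. The F-tests also draw on the spread of other genes, so their p-values can be smaller than these intervals imply. Fold changes are M1 over M2 or MCHP over DMSO, and CPM use the same TMM factors. Counting intervals cover counting error only. The fit was tested on simulated counts with 200 changed genes. The members and the 6 other lists were chosen with earlier results of these data known.

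Genes named were all members, the further enzymes of the route, and of each other list up to 4 called genes with the smallest p in each comparison. The likeness rule took the 5 genes with the highest r. Some genes that these rules select are not reported here. Alternatives were RLE size factors, library size alone, no filter, DESeq2 1.42.0, limma-voom (limma 3.58.1), a replicate block, a fit of the compared libraries only, each library left out in turn, and ratios without gene length. Protein sequences were not used here.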

Additional observations from a re-analysis of the deposited data

How the results depend on the processing

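Over the mean of treatments, the calls for ALAS1, UROS, CPOX, FECH and HMOX1 between M1 and M2 held in direction and significance under all 18 alternatives, with log2 fold changes of 0.44 to 0.57, -0.67 to -0.52, -0.38 to -0.24, -0.62 to -0.46 and -0.76 to -0.61, in that order. The count of members called was 5 to 7 with 1 library left out. Library size alone moved the median of all genes to -0.11 and gave 3129 genes higher and 5615 lower in M1, against 4229 and 4266 with TMM; UROD then passed at -0.25 (edgeR adjusted p = 0.015), a shift close to that of all genes. It gave 2678 higher and 4338 lower under MCHP, against 3342 and 3462, 2395 higher and 4532 lower in DMSO, against 3296 and 3193, and with MCHP in M2 306 higher and 465 lower, against 446 and 333. For MCHP, the contrast used to choose ALAS1, the count of members past the threshold was 0 in M1 with the replicate block and 0 to 1 with 1 library left out, and 1 in M2 throughout; nothing is read from it. The block was run because labels share replicate numbers, but same-numbered libraries did not deviate together (r = -0.05 to 0.04 over 18 pairs), and it changed no call of the other members.

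Signs turned only for members that did not pass. Between M1 and M2, PPOX was at 0.0060 by limma-voom and ALAD in DMSO at -0.12 with library size alone. With 1 library left out, the mean over treatments ran from -0.083 to 0.094 for PPOX and -0.070 to 0.0094 for ALAD, and values in DMSO ran from -0.079 to 0.081 for ALAD, -0.17 to 0.086 for UROD and -0.22 to 0.11 for BLVRB. The difference of responses ran from -0.15 to 0.019 for ALAD, -0.042 to 0.091 for CPOX, -0.13 to 0.047 for FECH and -0.029 to 0.14 for HMOX1. With MCHP, values over all alternatives spanned 0 in M1 for PPOX (-0.086 to 0.14), ALAD (-0.079 to 0.077), FECH (-0.11 to 0.017) and BLVRB (-0.16 to 0.13). In M2 they did for HMOX1 (-0.059 to 0.11), FECH (-0.076 to 0.083), UROD (-0.048 to 0.21), CPOX (-0.0060 to 0.12) and ALAD (-0.0014 to 0.14). The cause was not tested. The number of genes called over the other lists stayed within 1.5 times under each scaling and the block, but with MCHP in M2 DESeq2 called 5 regulators against 2 by edgeR. Over all genes, leaving out 1 library gave 1 to 159 calls for MCHP in M1 against 13 with all 12, 383 to 1747 against 779 in M2, and 5 to 385 against 25 for the difference, in each case highest without M2 DMSO replicate 1. Members with 45 to 155 counts per library (PPOX, ALAD, BLVRB) have the widest intervals.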

Other observations

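Enzymes that supply the substrates of ALAS1 also differed between M1 and M2. Of 7 genes for succinyl-CoA and glycine supply, 6 were tested, and 1 was higher and 4 were lower in M1 by edgeR's quasi-likelihood test (median log2 fold change -0.35), beside 27.7% higher and 28.0% lower over all genes. SUCLG1, a subunit of succinyl-CoA synthetase, was at -0.59 ± 0.06 (SE; edgeR adjusted p = 2.6e-07), SUCLA2, another subunit of it, at -0.52 ± 0.07 (7.1e-06), and SHMT1, which makes glycine in the cytosol, at -0.58 ± 0.10 (1.0e-04). OGDH, a subunit of the complex that makes succinyl-CoA, was higher, at 0.40 ± 0.05 (edgeR adjusted p = 3.2e-06). None of the 3 enzymes that make heme a or attach heme c (COX10, COX15, HCCS) passed by edgeR, DESeq2 or limma-voom, and 1, HCCS, had an unadjusted p under 0.05 by edgeR. With MCHP no gene of these lists passed in either state by edgeR, DESeq2 or limma-voom, and none had an unadjusted p under 0.05 by edgeR.

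With the mean of each group subtracted, the genes whose log2 CPM followed that of ALAS1 most closely over the 12 libraries included C4orf3 (r = 0.963), PLIN2 (0.936), FAM219B (0.907) and ATP6V0E1 (0.904). For HMOX1 they were CD2BP2 (0.991), ADAP1 (0.980), ZNF503 (0.978), YRDC (0.975) and SLC3A2 (0.974). These r are the highest among 9611 genes over 12 libraries with 4 group means removed. Values this high can arise by chance, so they are a description. HMOX1 itself varied most among M2 DMSO libraries, with an SD of 20.7 CPM against 2.43 to 7.40 CPM in the other groups. Each of the genes named for HMOX1 also varied most there. M2 DMSO replicate 1, the library that stood apart, had the lowest HMOX1 of that group, at 155 CPM. Its part in these r was not tested. PLIN2, which coats lipid droplets, averaged 55.0 CPM in M1 MCHP libraries, 36.4 in M1 DMSO, 148 in M2 MCHP and 48.3 in M2 DMSO libraries, so it was higher with MCHP in both states, where ALAS1 was lower.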
